A study of Homo sapiens with 12 samples.

Results

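FLT3, a receptor tyrosine kinase of blood cells, was followed together with the transcription factors STAT5A and STAT5B, the PIM1, PIM2 and PIM3 kinases, and the feedback inhibitors SOCS1, SOCS2, SOCS3 and CISH. These 10 genes were chosen by name as the steps of 1 signalling route, with earlier results of these data known. Each symbol matched exactly 1 identifier among the 61906 genes of both deposited count tables. All samples were MOLM-14 cells, an established human line of acute myeloid leukemia that is known to have a rearranged KMT2A gene and, in FLT3 itself, an internal tandem duplication. In the knockdown experiment, 3 libraries came from cells infected by spinoculation with a lentivirus for an shRNA against DDX5 (shDDX5), and 3 from cells infected likewise for a control shRNA (shControl), all collected 96 hours later. In the drug experiment, 3 libraries came from cells kept for 6 hours with 100 nM RX-5902, a compound directed at phosphorylated DDX5, an RNA helicase, and 3 from cells kept for 6 hours with 0.1% DMSO, the solvent. A single shRNA against DDX5 was used without a rescue, so other effects of that shRNA cannot be told apart from those of lower DDX5, and the labels do not give the share of infected cells.

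FLT3 sits on early blood progenitors and is switched on by FLT3 ligand. The internal tandem duplication found in many myeloid leukemias keeps the receptor active without ligand, and in that state it drives phosphorylation of STAT5A and STAT5B, which then pair, enter the nucleus and bind DNA. PIM1, PIM2, PIM3, CISH, SOCS1, SOCS2 and SOCS3 are among the genes that STAT5 or related STATs can switch on. The PIM proteins are serine/threonine kinases that promote survival and growth, and the SOCS proteins and CISH bind receptors or JAK kinases and damp the signal. Only RNA was measured, so phosphorylation and protein levels of these factors were not seen.

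Libraries of the knockdown experiment held 17603589 to 19674098 counts and those of the drug experiment 20264250 to 20367575, and all 10 genes passed the expression filter in both. DDX5 itself stood at 159, 164 and 161 CPM (counts scaled to a common library size) in shDDX5 libraries, against 755, 718 and 730 CPM in shControl libraries. In the drug experiment it was 1.24-fold higher with RX-5902 (log2 0.31, SE 0.04, edgeR adjusted p = 1.47e-08). The shDDX5 replicate 1 library stood apart from its 2 fellow libraries, with a chi-square per gene of 46.3 and 46.4 against 1.68 to 5.93 for all other replicate pairs. Values without that library are therefore given below for PIM1, PIM3, SOCS1 and some of the lists. For the other genes, the log2 change with the knockdown without it was 0.62 for PIM2, 1.11 for SOCS3, 0.73 for CISH and 0.37 for STAT5A. It was -0.48 for FLT3, -0.49 for STAT5B and -0.71 for SOCS2. Each of these kept its direction and an edgeR adjusted p under 0.05. The 12 markers of the myeloid line were all above 1 CPM in both knockdown groups, and 11 of 12 were in both drug groups, where CD14 was near 0. Their summed level was 13406 to 14778 CPM in shDDX5 libraries and 4136 to 4494 CPM in shControl libraries, mostly from the lysozyme gene LYZ, and 1509 to 1543 CPM with RX-5902 and 1381 to 1404 CPM with DMSO. Of 7 T and NK cell markers, the summed level was 109 to 162 CPM in shDDX5 and 70.0 to 75.3 CPM in shControl libraries. NKG7 averaged 113 CPM in shDDX5 and 53.2 CPM in shControl libraries, and GNLY 14.2 and 18.4 CPM. CD3E, CD3G and CD8A were at 0 in shDDX5 libraries. In the drug experiment the 7 markers summed to 23.5 to 25.9 CPM with RX-5902 and 15.3 to 16.4 CPM with DMSO, with CD3D, CD3E, CD3G and CD2 at 0. The 5 fibroblast markers summed to 3.52 to 6.06 CPM in shDDX5 and 0.591 to 0.747 CPM in shControl libraries, with COL3A1, DCN and LUM at 0. The 5 markers of epithelial or packaging cells summed to 5.49 to 7.44 CPM in shDDX5 and 3.44 to 3.65 CPM in shControl libraries, with EPCAM, KRT19 and CDH1 at 0, and the B cell and erythroid lists reached at most 2.49 CPM and 0.148 CPM in any library. Mitochondrial genes gave 10.3, 8.09 and 7.71% of counts in shDDX5 libraries, highest in replicate 1, against 7.75, 6.70 and 6.17% in shControl libraries, and 5.19 to 5.98% with RX-5902, against 5.96 to 6.20% with DMSO. The shDDX5 replicate 1 library also had the fewest genes detected of the knockdown libraries, 22779, against 23710 to 23982 in the others. The mitochondrial shares overlapped between the groups in both experiments. The part of these marker sums and shares in the results below was not tested. In bulk RNA, fewer cells of a kind and less RNA per cell cannot be told apart.

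With knockdown of DDX5, 9 of the 10 genes passed the test, 6 higher and 3 lower. SOCS1, SOCS3, CISH, PIM2, PIM3 and STAT5A rose, while FLT3, STAT5B and SOCS2 fell, and PIM1 did not pass. With RX-5902, 7 passed, 5 of them higher: SOCS3, SOCS1, SOCS2, PIM1 and PIM3 rose, FLT3 and PIM2 fell, and STAT5A, STAT5B and CISH did not pass. Passing, or being called, means an adjusted p under 0.05 in edgeR's quasi-likelihood test, with the Benjamini-Hochberg adjustment made over all genes tested. Most expressed genes were called in both experiments: 56.7% of 14463 genes with the knockdown (28.4% higher, 28.3% lower) and 64.1% of 13941 genes with RX-5902 (32.2% higher, 31.9% lower). The 7 of 10 with RX-5902 is thus near the share of all genes, and the 9 of 10 with the knockdown, above it, is a description of a few chosen genes. The 10 genes had a median log2 fold change of 0.44 with the knockdown and 0.14 with RX-5902, against -0.000705 and 0.0123 for all genes tested. The 2 groups of libraries did not overlap for 9 of the 10 genes with the knockdown and for 6 with RX-5902, while the shares of all genes were 66.1% and 67.4%.

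**Figure D1:**
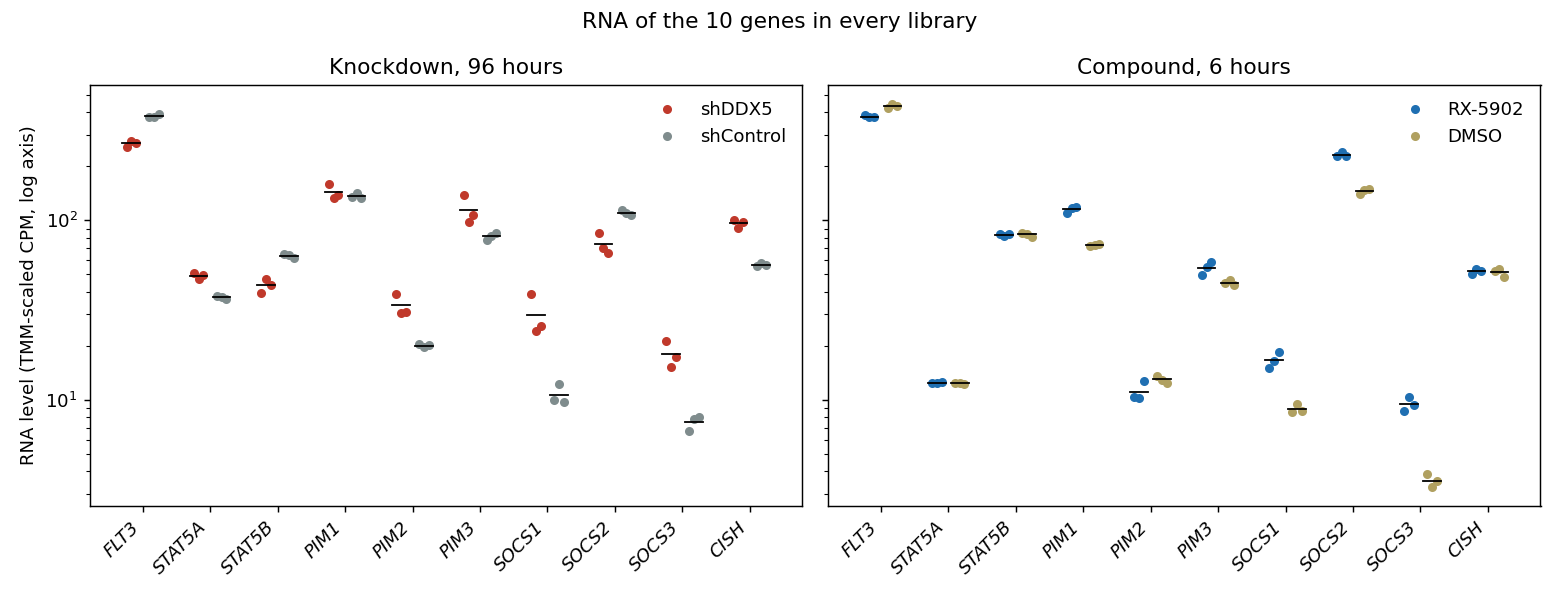
RNA level of the 10 genes in each library (TMM-scaled CPM, log axis), with the knockdown experiment at the left and the drug experiment at the right. Points are libraries and bars are group means, and the shDDX5 libraries lie apart from the shControl libraries for every gene except PIM1.

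FLT3 had the highest level per length of the 10 genes in all 4 groups. In TPM, a level that accounts for gene length, FLT3 averaged 188 ± 30.7 in shDDX5, 314 ± 11.9 in shControl, 344 ± 9.29 in RX-5902 and 366 ± 9.94 in DMSO libraries (SD, n = 3 each). Between 97.4 and 98.6% of 19879 protein-coding genes had a lower TPM, depending on the group. PIM1 and PIM3 came next in the knockdown experiment, and in the drug experiment PIM1, SOCS2 and PIM3 did. At the low end stood SOCS3, with 18.7 ± 1.21 TPM in shDDX5, 9.42 ± 1.08 in shControl, 13.1 ± 1.40 in RX-5902 and 4.54 ± 0.342 in DMSO libraries, together with STAT5B in shDDX5 cells and STAT5A in the drug experiment. Some neighbours in this order overlapped between libraries. In shDDX5 libraries these were FLT3 with PIM3, PIM3 with PIM1, and CISH with SOCS1, and in shControl libraries SOCS1 with STAT5A. With RX-5902 they were PIM1 with SOCS2, CISH with SOCS1, and PIM2 with SOCS3, and with DMSO they were PIM1 with SOCS2 and SOCS1 with PIM2.

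The choice of scale shifts all genes together. The median TPM ratio of the tested genes was -0.23 (log2) for shDDX5 over shControl and 0.12 for RX-5902 over DMSO, whereas the TMM-scaled fold changes centre near 0. Directions of single genes below are from TMM-scaled CPM. The family sums below are in TPM and carry this shift. On the TPM scale PIM1 turned, with every shDDX5 library below every shControl library, and STAT5A overlapped between the 2 knockdown groups, while STAT5A, STAT5B and CISH were higher in every RX-5902 library than in every DMSO library.

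The receptor gene FLT3 lies on chr13:28003274-28100592 (GRCh38, minus strand). In shDDX5 libraries it had 257, 278 and 271 CPM, against 378, 378 and 390 CPM in shControl libraries. With RX-5902 it had 385, 375 and 375 CPM, against 425, 444 and 434 CPM with DMSO. All treated libraries lay below all their controls in both experiments. FLT3 RNA was 1.42-fold lower with the knockdown (log2 -0.51, SE 0.08, edgeR adjusted p = 0.000794) and 1.15-fold lower with RX-5902 (log2 -0.20, SE 0.04, edgeR adjusted p = 1.86e-05). The fall with the knockdown was the larger, with a difference of the log2 changes of -0.33 (SE 0.08, edgeR adjusted p = 0.0033). Neither the fall with RX-5902 nor that difference passed a test against a minimum change of 1.2-fold (edgeR adjusted p = 1.00 and 0.154).

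STAT5A and STAT5B encode near-identical transcription factors and lie head to head on chromosome 17, STAT5A at chr17:42287547-42311943 on the plus strand and STAT5B at chr17:42199176-42288633 on the minus strand. With the knockdown the 2 genes moved in opposite directions, and with RX-5902 neither passed the test. STAT5A had 50.8, 46.8 and 49.6 CPM in shDDX5 libraries, against 38.1, 37.6 and 36.4 CPM in shControl libraries. STAT5B had 39.2, 46.9 and 43.9 CPM in shDDX5 libraries, against 65.0, 64.1 and 61.7 CPM in shControl libraries. No library of one group reached the range of the other for either gene. STAT5A rose by 0.39 on the log2 scale (SE 0.08, edgeR adjusted p = 0.00303), and STAT5B fell by 0.55 (SE 0.09, edgeR adjusted p = 0.0011). In the drug experiment STAT5A had 12.4, 12.4 and 12.6 CPM with RX-5902, against 12.3, 12.4 and 12.3 CPM with DMSO. STAT5B had 84.4, 82.0 and 83.6 CPM with RX-5902, against 85.1, 84.3 and 80.9 CPM with DMSO. Both genes overlapped between the drug groups, and the 95% intervals of the log2 change ran from -0.15 to 0.18 for STAT5A and from -0.09 to 0.09 for STAT5B.

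The make-up of the STAT5 pair differed accordingly. STAT5A gave 65.4 to 71.1% of the summed STAT5 TPM in shDDX5 libraries, against 52.6 to 52.8% in shControl libraries, and 21.8 to 22.2% with RX-5902, against 21.6 to 22.4% with DMSO. The sum itself was 27.7 to 35.5 TPM in shDDX5 libraries, against 37.6 to 38.3 TPM in shControl libraries, and 32.9 to 33.7 TPM with RX-5902, against 30.5 to 31.1 TPM with DMSO. These sums carry the shift of the TPM scale. In TMM-scaled RPKM, which is CPM divided by gene length, STAT5A averaged 7.69 in shDDX5 and 5.85 in shControl libraries, and STAT5B 3.58 and 5.25. On that scale the sums overlapped between the groups in both experiments, so a change of the sum is not shown. The change of each gene differed between the experiments, by 0.36 for STAT5A (SE 0.09, edgeR adjusted p = 0.00499) and by -0.57 for STAT5B (SE 0.09, edgeR adjusted p = 0.00012). Removing each library's trend with gene length left STAT5B at -0.35 with the knockdown (edgeR adjusted p = 0.00385), and its difference between the experiments at -0.24 (edgeR adjusted p = 0.0222). Blocking on replicate as well left that difference just outside the threshold (edgeR adjusted p = 0.05004). The difference for STAT5A was 0.55 after the length correction alone (edgeR adjusted p = 0.000513). The 2 genes share 415 exon bases on opposite strands, 6.5% of STAT5A, and long stretches of similar sequence, so reads could have been split between them. The shControl and DMSO cells also had unlike STAT5A levels, at 37.4 ± 0.868 CPM and 12.3 ± 0.0558 CPM (SD, n = 3 each), as did LYZ, at 3411 and 377 CPM. Infection, time in culture and the experiment itself cannot be told apart there, and no test was made.

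**Figure D2:**
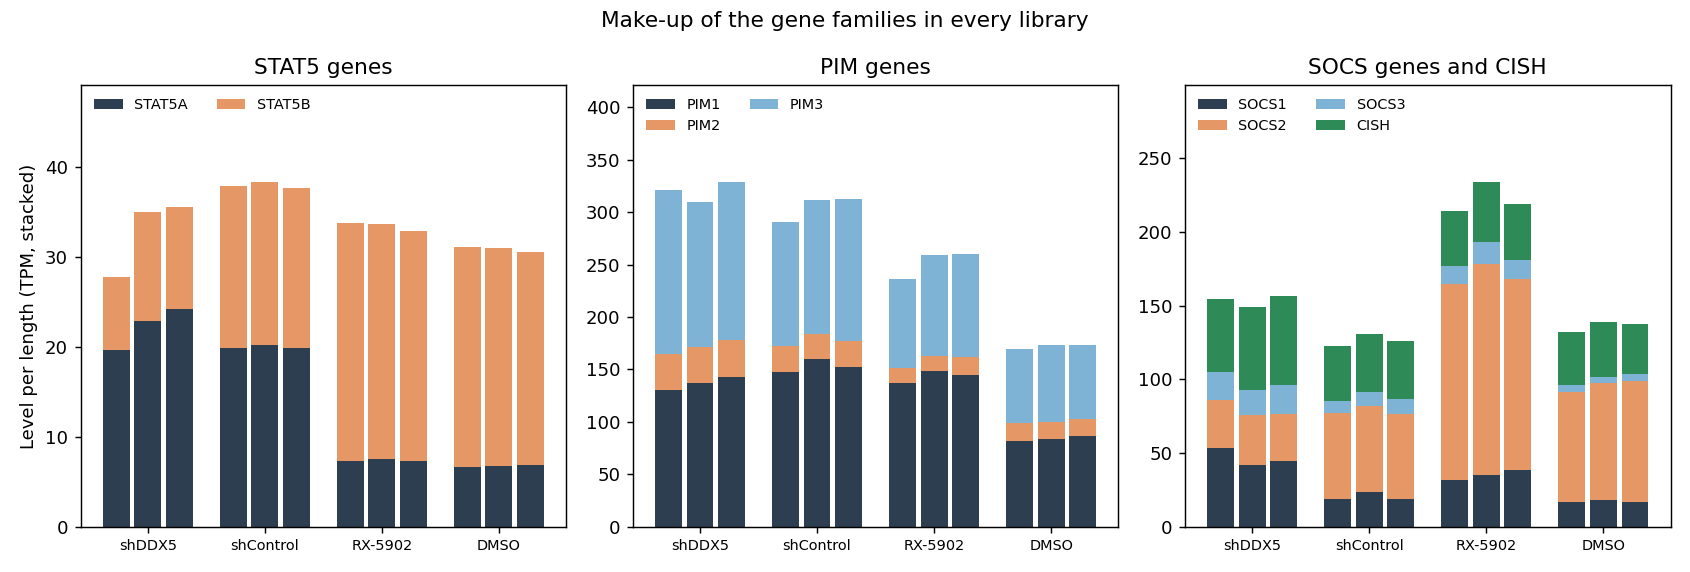
Stacked TPM of the STAT5, PIM and SOCS/CISH genes, 1 bar per library, with replicates 1 to 3 from left to right in each group. STAT5A takes more than STAT5B in shDDX5 libraries and less than STAT5B in RX-5902 and DMSO libraries, and SOCS2 is the tallest block of its family in shControl, RX-5902 and DMSO libraries.

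The 3 PIM kinase genes followed different patterns. PIM1 (chr6:37170152-37175428, plus strand), a kinase gene named for a site of retroviral insertion in mouse lymphomas, had 159, 133 and 139 CPM in shDDX5 libraries, against 134, 141 and 132 CPM in shControl libraries. These groups overlapped, with a log2 difference of 0.08 (SE 0.09, 95% interval -0.14 to 0.29, edgeR adjusted p = 0.497), and of -0.0052 without shDDX5 replicate 1. With RX-5902 PIM1 had 110, 117 and 118 CPM, against 71.6, 72.9 and 73.7 CPM with DMSO. It was thus 1.58-fold higher in RX-5902 libraries, all of them above all DMSO libraries (log2 0.66, SE 0.04, edgeR adjusted p = 4.84e-15). The 2 changes differed by -0.60 (SE 0.11, edgeR adjusted p = 0.000348).

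PIM2 (chrX:48913182-48919024, minus strand), a kinase linked to protein synthesis and survival, rose with the knockdown, unlike PIM1. It had 39.0, 30.6 and 31.0 CPM in shDDX5 libraries, against 20.5, 19.6 and 20.1 CPM in shControl libraries, a 1.67-fold rise with no overlap (log2 0.74, SE 0.11, edgeR adjusted p = 0.000712). With RX-5902 it had 10.3, 10.2 and 12.8 CPM, against 13.6, 12.8 and 12.5 CPM with DMSO. The third RX-5902 library lay within the range of the DMSO libraries, and the fall was small (log2 -0.23, SE 0.09, edgeR adjusted p = 0.0267). That call was lost in DESeq2's Wald test (adjusted p = 0.0767) and without DMSO replicate 1, RX-5902 replicate 1 or RX-5902 replicate 2 (edgeR adjusted p = 0.0848, 0.117 and 0.148). A fit of all 12 libraries and a test against a minimum change of 1.2-fold did not call it either (edgeR adjusted p = 0.221 and 0.631). The changes of PIM2 in the 2 experiments differed by 0.95 (SE 0.16, edgeR adjusted p = 0.000207).

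PIM3 (chr22:49960768-49964072, plus strand), the remaining kinase, rose in both experiments. It had 139, 97.3 and 107 CPM in shDDX5 libraries, against 77.4, 81.5 and 85.2 CPM in shControl libraries (log2 0.49, SE 0.13, edgeR adjusted p = 0.0139). The shDDX5 replicate 1 library was the highest, and without it the rise was 0.32 (edgeR adjusted p = 3.22e-06), while leaving out shControl replicate 1 or 2 ended the call (edgeR adjusted p = 0.0702 and 0.0553). With the length trend removed the rise was also 0.32 (edgeR adjusted p = 0.0304). With RX-5902 PIM3 had 49.6, 54.6 and 58.4 CPM, against 44.9, 46.2 and 43.9 CPM with DMSO, a rise without overlap (log2 0.27, SE 0.06, edgeR adjusted p = 7.76e-05). The difference between the 2 changes was 0.21 (SE 0.16, 95% interval -0.15 to 0.56, edgeR adjusted p = 0.311).

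Summed over the family, PIM RNA was 309.5 to 329 TPM in shDDX5 libraries, against 290.1 to 313 TPM in shControl libraries, ranges that overlapped on this scale. In TMM-scaled RPKM every shDDX5 sum lay above every shControl sum. There PIM1 averaged 47.4 in shDDX5 and 44.9 in shControl libraries, PIM2 12.2 and 7.26, and PIM3 52.0 and 37.0. With RX-5902 the summed PIM RNA was 237 to 260.0 TPM, against 170.0 to 173 TPM with DMSO. PIM1 gave 40.5 to 44.2% of the sum in shDDX5 libraries, against 48.7 to 51.3% in shControl libraries, and 55.6 to 58.0% with RX-5902, against 48.2 to 49.8% with DMSO. The share of PIM2 was 10.7 to 11.2% in shDDX5 and 7.82 to 8.52% in shControl libraries, and 5.51 to 6.58% with RX-5902 and 9.26 to 10.1% with DMSO. In each experiment the treated libraries thus lay outside the range of their controls in both shares, on opposite sides.

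Among the feedback inhibitors, SOCS1 and SOCS3 rose in both experiments, CISH with the knockdown, and SOCS2 moved in opposite directions. CISH encodes CIS, which competes with STAT5 for docking sites on receptors, and its promoter is a textbook target of STAT5. SOCS1 and SOCS3 block JAK kinases directly and are also switched on by interferons and interleukin-6 family cytokines. The RefSeq promoters of CISH and SOCS1 (GRCh38.p14, 250 bases before to 50 after the start, both on the minus strand and written 5′ to 3′) are shown because they hold the motifs that were searched. Capitals mark TTCNNNGAA, the palindromic element that STAT dimers bind, in CISH (chr3:50611725-50612024), and a pair of GAAA runs 2 bases apart, as in elements of interferon-responsive genes, in SOCS1 (chr16:11256155-11256454).
CISH: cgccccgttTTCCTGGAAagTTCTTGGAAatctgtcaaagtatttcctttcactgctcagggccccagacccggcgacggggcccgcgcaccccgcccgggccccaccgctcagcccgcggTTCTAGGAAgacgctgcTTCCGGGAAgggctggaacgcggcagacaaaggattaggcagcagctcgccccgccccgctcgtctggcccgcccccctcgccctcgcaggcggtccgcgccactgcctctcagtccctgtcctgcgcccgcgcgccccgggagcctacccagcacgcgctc
SOCS1: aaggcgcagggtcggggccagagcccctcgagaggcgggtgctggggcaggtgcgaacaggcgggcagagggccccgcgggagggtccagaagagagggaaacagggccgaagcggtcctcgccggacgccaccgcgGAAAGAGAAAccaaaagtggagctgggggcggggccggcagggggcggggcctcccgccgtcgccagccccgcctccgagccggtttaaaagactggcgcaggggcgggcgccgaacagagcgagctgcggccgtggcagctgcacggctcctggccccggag

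The table held 12 promoters for 9 of the 10 genes, all but SOCS2. The SOCS3 promoters (chr17:78360876-78361175 and chr17:78359618-78359917) do not cover the 5′ end of the SOCS3 span given below, at 78360077. The STAT5B promoter (chr17:42276342-42276641) likewise does not cover the 5′ end of the STAT5B span, at 42288633. The promoter windows at those 2 ends were not searched. TTCNNNGAA, which reads alike on both strands, occurred 4 times in the CISH promoter, beginning at positions -241, -230, -129 and -112 from the start, and in none of the other 11 promoters. Of all 35116 promoters of this length, 2689 (7.66%) held at least 1 such element and 7 held 4 or more. The pair of GAAA runs with any 2 bases between them, searched on both strands, occurred 1 time in SOCS1, at position -113, and in 1255 of all promoters (3.57%). A match is a run of letters and not a shown binding site, and absence from this window says nothing of a factor's binding elsewhere.

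CISH (chr3:50606489-50611774, minus strand) had 100.4, 91.1 and 97.6 CPM in shDDX5 libraries, against 55.8, 57.9 and 56.4 CPM in shControl libraries. This 1.70-fold rise, with every shDDX5 library above every shControl library, had the smallest p of the 10 genes with the knockdown (log2 0.77, SE 0.08, edgeR adjusted p = 8.90e-05). With RX-5902 it had 50.3, 53.6 and 51.9 CPM, against 52.2, 53.7 and 48.2 CPM with DMSO. Those groups overlapped, with a log2 difference of 0.02 (SE 0.05, 95% interval -0.09 to 0.12, edgeR adjusted p = 0.800). The changes differed between the experiments by 0.73 (SE 0.09, edgeR adjusted p = 1.80e-05). CISH shares 218 exon bases (4.31%) with MAPKAPK3 on the other strand, which had 135 to 146 CPM in shDDX5 and 130 to 142 CPM in shControl libraries.

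SOCS1 (chr16:11254417-11256204, minus strand) had the largest fold of the 10 genes with the knockdown. It stood at 38.7, 24.1 and 25.7 CPM in shDDX5 libraries, against 10.0, 12.3 and 9.67 CPM in shControl libraries, 2.77-fold higher (log2 1.47, SE 0.19, edgeR adjusted p = 0.000347). With RX-5902 it had 15.0, 16.4 and 18.5 CPM, against 8.54, 9.51 and 8.62 CPM with DMSO, 1.87-fold higher (log2 0.90, SE 0.09, edgeR adjusted p = 1.20e-10). Neither pair of groups overlapped. The 2 changes differed by 0.55 (SE 0.24, edgeR adjusted p = 0.0718), short of the threshold. The shDDX5 replicate 1 library was the highest for SOCS1, and without it the difference was 0.32 (edgeR adjusted p = 0.0396) and the rise with the knockdown 1.23. The difference also passed without shDDX5 replicate 2 or 3 or shControl replicate 2 (0.70, 0.67 and 0.69, edgeR adjusted p = 0.0175, 0.0334 and 0.0408), and with no low-count filter (0.55, edgeR adjusted p = 0.00293).

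SOCS3 (chr17:78356778-78360077, minus strand) had 21.2, 15.2 and 17.2 CPM in shDDX5 libraries, against 6.72, 7.84 and 8.04 CPM in shControl libraries. Its level with RX-5902 was 8.64, 10.4 and 9.32 CPM, against 3.84, 3.29 and 3.51 CPM with DMSO. In both experiments the treated libraries lay well above their controls. The rise was 2.37-fold with the knockdown (log2 1.25, SE 0.15, edgeR adjusted p = 0.000183) and 2.66-fold with RX-5902 (log2 1.41, SE 0.12, edgeR adjusted p = 2.28e-12). A difference between these rises was not shown (-0.18, SE 0.20, 95% interval -0.61 to 0.26, edgeR adjusted p = 0.482). With 65 to 76 reads per DMSO library, SOCS3 was the least sampled of the 10 genes.

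SOCS2 (chr12:93569814-93583487, plus strand), known for restraining growth hormone signalling and also an FLT3 binding protein, had 84.9, 69.7 and 65.6 CPM in shDDX5 libraries, against 114, 109.96 and 108 CPM in shControl libraries. With RX-5902 it had 228, 239 and 227 CPM, against 139, 147 and 149.7 CPM with DMSO. All shDDX5 libraries lay below all shControl libraries, and all RX-5902 libraries above all DMSO libraries. SOCS2 was 1.51-fold lower with the knockdown (log2 -0.59, SE 0.11, edgeR adjusted p = 0.00197) and 1.59-fold higher with RX-5902 (log2 0.67, SE 0.04, edgeR adjusted p = 4.79e-16). The difference of these changes, -1.28, was the largest of the 10 genes (SE 0.12, edgeR adjusted p = 1.23e-06). SOCS2 shares 277 exon bases (4.28%) with the antisense gene SOCS2-AS1, which had 5.74 to 8.46 CPM in shDDX5 and 4.78 to 5.53 CPM in shControl libraries, and 12.1 to 12.4 CPM with RX-5902 and 8.70 to 9.55 CPM with DMSO.

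With the knockdown these changes altered which inhibitor had the largest share of the family's RNA, while SOCS2 kept that place with RX-5902. SOCS2 gave 20.2 to 22.5% of the summed SOCS1, SOCS2, SOCS3 and CISH TPM in shDDX5 libraries, against 44.5 to 47.9% in shControl libraries. CISH was the largest in shDDX5 replicates 2 and 3 and SOCS1 in shDDX5 replicate 1. With RX-5902 the share of SOCS2 was 59.4 to 62.1%, against 56.6 to 59.6% with DMSO, ranges that overlapped. The summed level was 149 to 156 TPM in shDDX5 libraries, against 122 to 131 TPM in shControl libraries, and 214 to 234 TPM with RX-5902, against 132 to 139 TPM with DMSO.

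Set side by side, 7 of the 10 changes differed between the experiments, where 52.7% of 15386 genes did. STAT5A, PIM2 and CISH had the higher change with the knockdown, and FLT3, STAT5B, PIM1 and SOCS2 the lower. For PIM3, SOCS1 and SOCS3 the difference did not pass the test. The experiments differ in time, infection and agent at once, so which of these goes with a difference cannot be told apart.

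**Figure D3:**
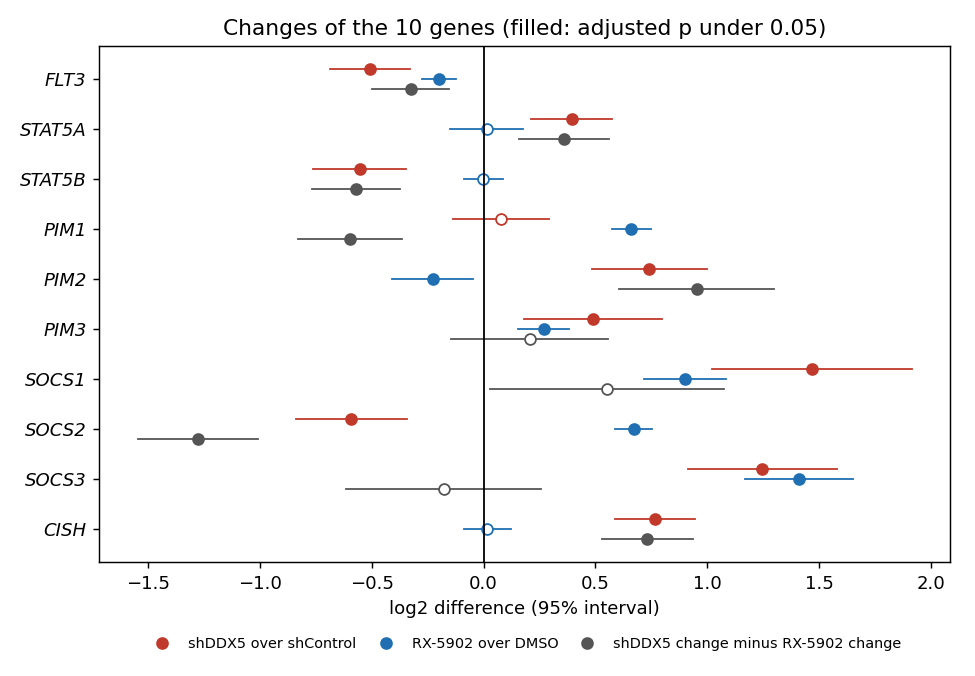
Log2 change of each gene with its 95% interval, for shDDX5 over shControl (red), RX-5902 over DMSO (blue) and the first minus the second (grey), filled where the adjusted p is under 0.05. SOCS1, SOCS3 and PIM3 lie right of 0 in both experiments, FLT3 left of 0 in both, and SOCS2 on opposite sides.

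Around the 10 genes, 9 lists of their upstream and downstream partners held 90 other genes. With the knockdown 50 of 77 tested genes were called (64.9%), 21 higher and 29 lower, and with RX-5902 64 of 76 (84.2%), 44 higher and 20 lower, beside 56.7% and 64.1% of all genes. Of all genes tested, 28.4% were higher and 28.3% lower with the knockdown, and 32.2% higher and 31.9% lower with RX-5902. The lists were chosen with earlier results of these data known, so list shares above those of all genes are a description. Without shDDX5 replicate 1, 64 were called with the knockdown, and the count over all genes was then 10645, against 8204 with that library. The text names up to 3 called genes with the smallest p per list and experiment, and some genes stand on more than 1 list.

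Upstream, FLT3LG, the gene of FLT3 ligand, was too low to test, at 0.0899 ± 0.0809 CPM in shDDX5 and 0.181 ± 0.0276 CPM in shControl libraries and at 0.257 ± 0.146 CPM with RX-5902 and 0.202 ± 0.0881 CPM with DMSO. Of 18 tested partners that act at the receptor, 6 rose and 5 fell with the knockdown (median log2 0.15). FES, a cytoplasmic tyrosine kinase, had 51.3 ± 1.87 CPM in shDDX5 and 12.8 ± 0.0883 CPM in shControl libraries (log2 2.00), SLA, an adaptor that promotes receptor turnover, rose by 1.07, and CSK, which restrains SRC kinases, rose by 0.65. Without shDDX5 replicate 1, 10 of these partners rose. With RX-5902, 14 rose and 2 fell (median 0.30), among them the phosphatase gene PTPRC (log2 0.92, 515 ± 23.8 CPM with RX-5902 and 272 ± 16.2 CPM with DMSO), the adaptor gene GAB2 (0.69) and the kinase gene SYK (-0.40). PTPRC itself was lower with the knockdown (-0.86).

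Transcription factors known to act on the FLT3 gene moved both ways in each experiment. With the knockdown, 4 of 8 fell and 2 rose (median -0.19), led by MEIS1, which had 3.01 ± 0.263 CPM in shDDX5 and 20.02 ± 1.67 CPM in shControl libraries (log2 -2.73), and its HOX partners HOXA9 (-1.62) and PBX3 (-1.21). With RX-5902, 4 of 7 rose and 3 fell (median 0.28). There HOXA9 (0.47) and the myeloid factor gene SPI1 (0.36) rose and MYB fell (-0.77). SPI1 also rose with the knockdown (0.37), and RUNX1 fell in both (-0.57 and -0.13). Without shDDX5 replicate 1, 4 of the 8 rose with the knockdown, and without shControl replicate 1 or 3, 1 did. HOXA9 and MEIS1 share 13.9% and 13.1% of their exon bases with antisense genes, which makes their levels less certain. Among FLT3's class III relatives, CSF1R, the receptor of macrophage colony-stimulating factor, rose with the knockdown (0.67) and with RX-5902 (0.44), while KIT averaged at most 0.0378 CPM and PDGFRA at most 0.412 CPM in any group.

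Other inputs to STAT5 were cytokine receptors and kinases. Of 6 tested receptors, 3 fell and 1 rose with the knockdown (median -0.12): IL2RB (-1.29) and IL7R (-0.43) fell and CSF3R rose (0.63). Of 7 tested with RX-5902, 3 rose and 2 fell (median -0.02), with IL7R at 1.17, EPOR at 0.63 and IL15RA at -0.62. CSF2RA and IL3RA were listed at 0 in all 12 libraries, in both their X and Y copies, so their levels cannot be read here. Of 7 JAK kinases and other STATs, 4 rose and 2 fell with the knockdown (median 0.66). STAT2, a factor of the interferon response, had 218 ± 31.9 CPM in shDDX5 and 75.7 ± 0.757 CPM in shControl libraries (log2 1.53), and the kinase gene JAK2 rose by 0.83. Without shControl replicate 2 or 3, 1 of these 7 fell. With RX-5902, 5 rose and 2 fell (median 0.44), with the smallest p for STAT2 (0.85), TYK2 (0.46) and JAK1 (0.44).

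Of 13 further genes listed as inhibitors of STAT5, 2 rose and 4 fell with the knockdown (median -0.05), and 6 rose and 0 fell with RX-5902 (median 0.14). PTPN6, PTPN11 and SH2B3 also stand on the list of partners at the receptor, so these counts do not give 1 direction of the signal. In the RX-5902 comparison, 1 of the 13, PIAS2, was lower at an unadjusted p under 0.05 in edgeR, DESeq2's Wald test also called 0 lower, and without DMSO replicate 1 or 3 edgeR called 1. PIAS3, an inhibitor of DNA binding by STATs, fell with the knockdown (-0.74) and rose with RX-5902 (0.70). The phosphatase gene PTPN6 rose (0.42) and PTPN11 fell (-0.69) with the knockdown, and SH2B3 (0.43) and PIAS4 (0.27) rose with RX-5902. Without shDDX5 replicate 1, 4 of the 13 rose with the knockdown, and without shControl replicate 2 or 3, 1 did. PIAS3 shares 9.01% of its exon bases with NUDT17 on the other strand.

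Downstream, of 10 tested STAT5 targets outside the 10 genes, 7 fell and 1 rose with the knockdown (median -0.76), beside 28.3% of all genes lower and 28.4% higher. The list was not split by whether STAT5 raises or lowers a gene, so its counts and medians do not give the direction of STAT5 output. The cyclin D gene CCND1 fell by 2.40 on the log2 scale, the cell cycle phosphatase gene CDC25A by 1.54 and MYC by 1.12, while the survival gene BCL2L1 rose (0.56). With RX-5902, 5 fell and 3 rose (median -0.16). MYC had 152 ± 6.39 CPM with RX-5902 and 616 ± 27.7 CPM with DMSO (log2 -2.02), and BCL6, a repressor, had 32.2 ± 2.23 CPM with RX-5902 and 4.81 ± 0.395 CPM with DMSO (log2 2.74). CDC25A fell there too (-0.78). CCND1 shares 10.4% of its exon bases and BCL2L1 41.3% with genes on the other strand. BCL2L1, PTPRC and SPI1 with the knockdown and RUNX1 in both experiments were named after their values were seen.

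Genes whose proteins PIM kinases phosphorylate moved both ways. With the knockdown 4 of 12 rose and 5 fell (median -0.27), and with RX-5902 8 rose and 3 fell (median 0.38). CDKN1A, the cell cycle inhibitor p21, was higher in both, at 1432 ± 197 CPM in shDDX5 and 535 ± 13.2 CPM in shControl libraries (log2 1.42), and at 439 ± 20.8 CPM with RX-5902 and 195 ± 7.40 CPM with DMSO (log2 1.17). CDC25A and CDC25C fell with the knockdown (-1.54 and -1.08), and EIF4EBP1, a brake on translation, fell with RX-5902 (-1.23). Without shControl replicate 2, 2 of the 12 rose with the knockdown. Of 5 genes that keep the FLT3 protein stable, 2 fell and 1 rose with the knockdown, and 4 fell and 1 rose with RX-5902. The chaperone gene HSP90AA1 fell in both (-0.30 and -0.57), HSP90AB1 fell (-0.83) and CDC37 rose (0.27) with the knockdown, and the deubiquitinase genes USP10 fell (-0.53) and USP9X rose (0.45) with RX-5902. Without any 1 of the shControl libraries or without shDDX5 replicate 3, CDC37 lost its call and 1 of these genes fell with the knockdown, and without shDDX5 replicate 1, 2 rose.

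**Figure D4:**
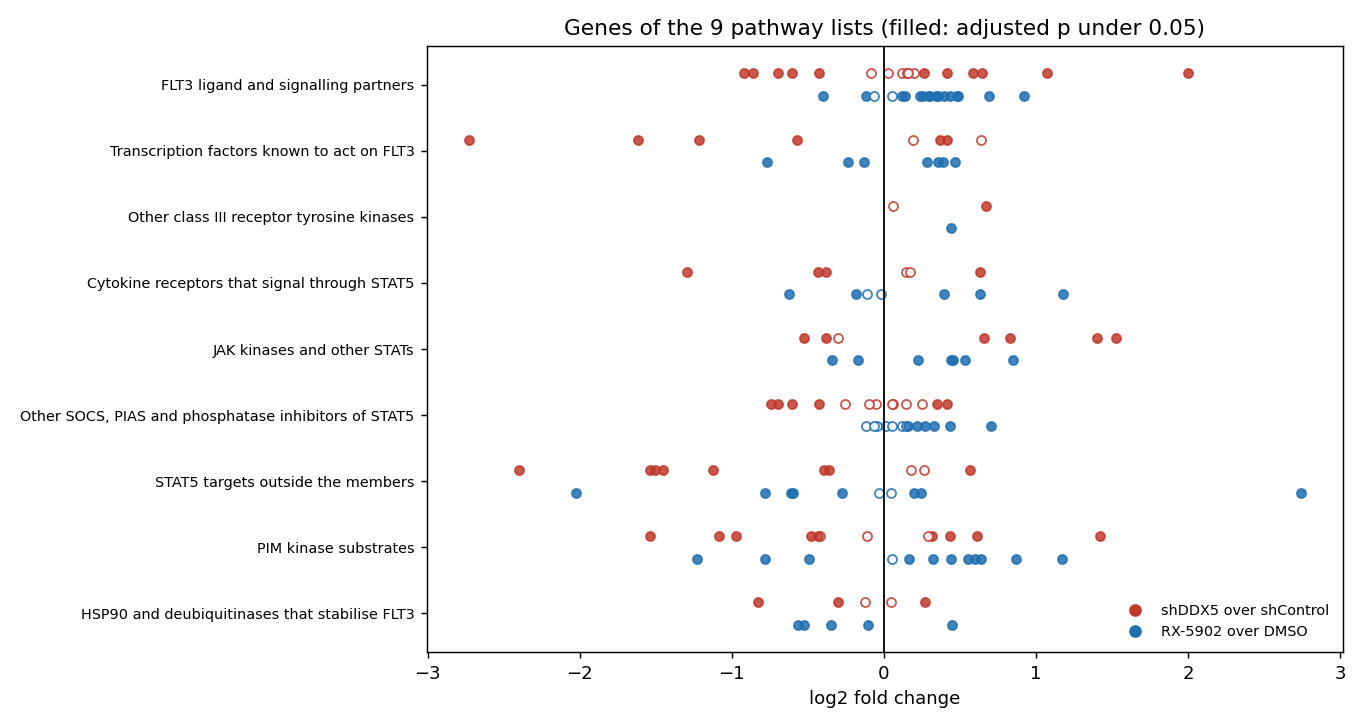
Log2 fold change of every tested gene of the 9 lists, for shDDX5 over shControl (red, upper row of each list) and RX-5902 over DMSO (blue, lower row), filled where the adjusted p is under 0.05. MEIS1 (-2.73, red) and CCND1 (-2.40, red) lie farthest left, and BCL6 (2.74, blue) farthest right.

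The genes most like each of the 10 were found over 12 libraries as the highest Pearson r of log2 CPM with each experiment's mean removed, among 9472 protein-coding genes that averaged 5 CPM or more. The points fall into 4 groups of 3 libraries and share those groups, so r mainly restates the group differences and is a description. Nearest to FLT3 were PARP1, a DNA repair enzyme (r 0.996), TTI1, which stabilises kinases of the PIKK family (0.995), and DTL, a ubiquitin ligase subunit of the cell cycle (0.994). PARP1 changed by -1.40 with the knockdown and -0.58 with RX-5902, TTI1 by -1.05 and -0.40, and DTL by -1.91 and -0.78, each more than FLT3 in both. The nearest gene to each other member was LETMD1 for STAT5A (0.992), GOLGA8O for STAT5B (0.993), UBALD2 for PIM1 (0.983), FOS for PIM2 (0.985), PPP4C for PIM3 (0.991), CPNE1 for SOCS1 (0.994), DNAJC1 for SOCS2 (0.989), PDLIM7 for SOCS3 (0.992) and SLC10A3 for CISH (0.995). Within the drug experiment alone, r was only 0.54 for LETMD1 with STAT5A and 0.13 for GOLGA8O with STAT5B. For the other pairs it was 0.89 to 0.995 there. GOLGA8O belongs to a family of near-identical copies, so its count is uncertain.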

How the data were processed

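RNA was measured in 12 libraries of MOLM-14 cells, 3 in each of 4 groups that the labels name and call biological replicates. Raw read counts of each gene were deposited, made by the authors with Trim Galore 0.6.7, STAR 2.7.9a, Picard 2.8.0 and featureCounts of Subread 2.0.3 on GRCh38.p13, per the submitters' processing notes, which also name R 4.4.2 and DESeq2 1.46.0. Not given in the sources used here were the annotation release, the strand setting and how multi-mapping reads were handled. The wrapped line of 1 gene was rejoined in each table. Symbols were matched for 59984 genes by versioned and 1819 by unversioned identifier, and 103 had none.

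Each experiment was fitted separately with edgeR 4.0.16 in R 4.3.3 (default expression filter, TMM scaling, quasi-likelihood F test, two-sided, Benjamini-Hochberg adjustment over all genes tested, threshold 0.05). The difference of the 2 changes came from a fit of all 12 libraries with 4 group means. Intervals are 95%. CPM is TMM-scaled within an experiment, and TPM uses the deposited gene length. In simulated counts for each experiment, 99.5% (knockdown, 14230 genes) and 100% (drug, 13707 genes) of 200 changed genes were called. In each experiment 7 other genes were called too. Recovery of folds as small as most of those of the 10 genes, or with a library standing apart, was not tested. The 10 genes and the lists were chosen with earlier results of these data known. Named list genes were up to 3 called genes of smallest p per list and experiment. Alternatives were DESeq2 size factors, no low-count filter, a stricter one (at least 50 counts in at least 3 libraries), DESeq2 1.42.0, the replicate number as a block, a length correction, both together, a minimum fold of 1.2, a 12-library fit, leaving out each library, and RPKM in place of TPM. Results for 1 gene are not reported here.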

Additional observations from a re-analysis of the deposited data

How the results depend on the processing

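Across the alternatives, 8 to 9 of the 10 genes were called with the knockdown (3 lower each time), 4 to 8 with RX-5902 and 5 to 8 in the difference between experiments. Tested against a minimum change of 1.2-fold, RX-5902 called 4 of the 10 genes, 0 of them lower, and 5190 of all genes, against 8943 without a minimum. The count lower with RX-5902 was 1 in DESeq2's Wald test and in the 12-library fit and 1 to 2 with a library left out, since PIM2 lost its call (adjusted p = 0.221 in the 12-library fit). Genes without a call in the main test changed sign around 0: PIM1 with the knockdown (-0.0052 without shDDX5 replicate 1, and -0.0052 to 0.13 over the libraries left out in turn), and with RX-5902 STAT5A (-0.0041 with no filter, -0.0406 with the length correction, alone or with the replicate block, and -0.0036 to 0.0204 with a library left out), CISH (-0.0024 with no filter, -0.0121 with the length correction, -0.0116 with it and the replicate block, -0.0067 without RX-5902 replicate 2, and -0.0428 to 0.0402 with a library left out) and STAT5B (0.0089 with the stricter filter, 0.0352 in the 12-library fit, 0.0023 without DMSO replicate 1, and -0.0384 to 0.0106 with a library left out). STAT5B passed with the length correction (-0.10, edgeR adjusted p = 0.0453), PIM3 did not pass against a 1.2-fold minimum (edgeR adjusted p = 0.0538 with the knockdown, 0.419 with RX-5902), and the STAT5A difference did not pass with no filter or against a 1.2-fold minimum (edgeR adjusted p = 0.0511 and 0.109). The cause was not tested. Same-numbered libraries did not deviate together (r from -0.12 to 0.05), so no pairing by number was seen. With 3 libraries a group, this cannot show that the samples were not paired. With the replicate number as a block, 7592 genes were called with the knockdown and the counts of the 10 genes were unchanged (9, 7 and 7), and with block and length correction the STAT5B difference (-0.24) missed the threshold. The order of the 10 genes by level was the same with RPKM as with TPM in all 4 groups. With 3 libraries a group, and 65 reads for the least sampled gene, small changes can be missed.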
